A study of Rattus norvegicus with 12 samples.

Results

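The kidneys of 2 inbred rat models of hypertension were set against each other, the Dahl salt-sensitive rat (S) and the spontaneously hypertensive rat (SHR). The comparison used 6 of the 12 arrays of the series, 3 S and 3 SHR, chosen by the strain and rat number in their titles. The other 6 arrays, from the Dahl salt-resistant rat (R) and the Wistar Kyoto rat (WKY), gave the levels in the strains usually paired with these models as normotensive controls. All 12 rats were males, weaned at 28 to 30 days, fed a diet with 0.3% NaCl and killed at 57 days, so no group received a high-salt diet. Each array held the RNA of 1 whole kidney sample, treated with RNase R and labelled with Cy3. The arrays carried 14145 circular RNA (circRNA) probes, and 11925 of them were well above background on all 3 arrays of S or on all 3 of SHR and were tested. All levels are in log2 units, after subtracting the 75th percentile of that array's circRNA probes.

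A circRNA forms when the spliceosome joins the end of an exon back to the start of the same or an earlier exon, which closes the RNA into a ring without free ends. RNase R digests RNA from a free 3′ end, so rings survive it better than linear transcripts. The S rat raises its blood pressure mainly when fed salt, while the SHR becomes hypertensive with age on ordinary chow. Whole kidney mixes tubules, glomeruli, vessels and immune cells, so in these samples fewer cells of a type and less of an RNA per cell cannot be told apart. The files used here do not pair the circRNA probes with a host gene, position or sequence, so circRNAs are named by probe ID. Blood pressure was not analysed here.

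The arrays of both strains were uneven. S rat 1 was the dimmest, with 70.3% of circRNA probes well above background, against 90.1% and 83.8% in S rats 2 and 3 and 84.7%, 89.4% and 84.9% in SHR rats 1 to 3. SHR rat 2 stood apart from the other SHR rats: it differed by over 1 log2 unit from SHR rats 1 and 3 at 2907 and 2580 circRNAs, but from R rat 1 at only 397. SHR rats 1 and 3 differed from each other at 130. In S, rat 2 was also nearest to R rat 1 (297 circRNAs), and it differed from S rats 1 and 3 at 5038 and 3268. All S and R arrays and WKY rats 1 and 2 lay on slide 1, and WKY rat 3 and all SHR arrays on slide 2, so slide and strain cannot be told apart between S and SHR. The mean log2 level of 35 probes to linear mRNAs was -2.12, -1.81 and -2.06 in S and -0.13, -1.79 and -0.42 in SHR.

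These rats set how large the strain difference looked. S rat 1 and SHR rat 1 differed by over 1 log2 unit at 6270 of 11925 circRNAs (52.6%), whereas S rat 2 and SHR rat 2 did so at 715 (6.0%). The other 7 pairs of an S and an SHR rat lay between 2990 and 5886 circRNAs. The pair of rats numbered 2 therefore differed less than S rats 1 and 3 did from each other (1582). The median SD of a circRNA within a strain was 0.51 log2 units in S, 0.34 in SHR and 0.26 in both R and WKY.

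The question of the comparison was how far the kidney circRNAs of the hypertensive models differ from each other. In a model of all 12 arrays, 2386 circRNAs passed limma's test at a Benjamini-Hochberg adjusted p under 0.05, which was 20.0% of those tested. Of these, 1220 were higher in S (10.2%) and 1166 lower in S (9.78%). The median difference was 1.504 log2 units among the higher ones and -1.553 among the lower ones, beside -0.02 over all tested circRNAs. A difference over 2-fold was reached by 1052 of the higher and 1032 of the lower circRNAs, and one over 16-fold by 41 and 6. The p-values set each difference against the spread between rats within strains, pooled over all 4 strains. That pool includes R and WKY, whose median SD was 0.26, beside 0.51 in S and 0.34 in SHR.

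The call did not always mean that the strains were apart. The 3 S and the 3 SHR values did not overlap for 931 of the 1220 higher and 863 of the 1166 lower circRNAs, beside 12.9% and 12.1% of all tested circRNAs in each direction. Non-overlapping values, 25.0% of all tested, were 29.2% without S rat 1, 58.0% without SHR rat 2 and 62.2% without S rat 2, and leaving out a rat can only raise this share. S rat 2 was the S rat nearest to SHR for 85.8% of the called circRNAs (66.5% of all tested), and SHR rat 2 the SHR rat nearest to S for 85.2% (66.7% of all tested). By a stricter criterion, added after the values were seen, 290 circRNAs (2.43%) had a gap between the strains wider than the range within either strain. Of these 210 were higher in S (1.76%) and 80 lower (0.671%), and 233 of the 290 were also called.

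The count rested on single rats. It was 269 without S rat 1, 239 without S rat 3, 192 without SHR rat 1 and 206 without SHR rat 3, but 5573 without S rat 2 and 4225 without SHR rat 2. Rats outside the comparison also moved it through the shared spread, to 1168 without R rat 2, 1193 without WKY rat 3, 1451 without WKY rat 1 and 1473 without R rat 1. A fit of the S and SHR arrays alone called 140 circRNAs, of which 119 were higher and 21 lower in S, all of them among the 2386. In all, 180 circRNAs kept their call and direction in each of the 6 fits without 1 S or SHR rat. They were 149 higher in S, with a median difference of 3.12, and 31 lower, with a median of -2.56.

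**Figure D1:**
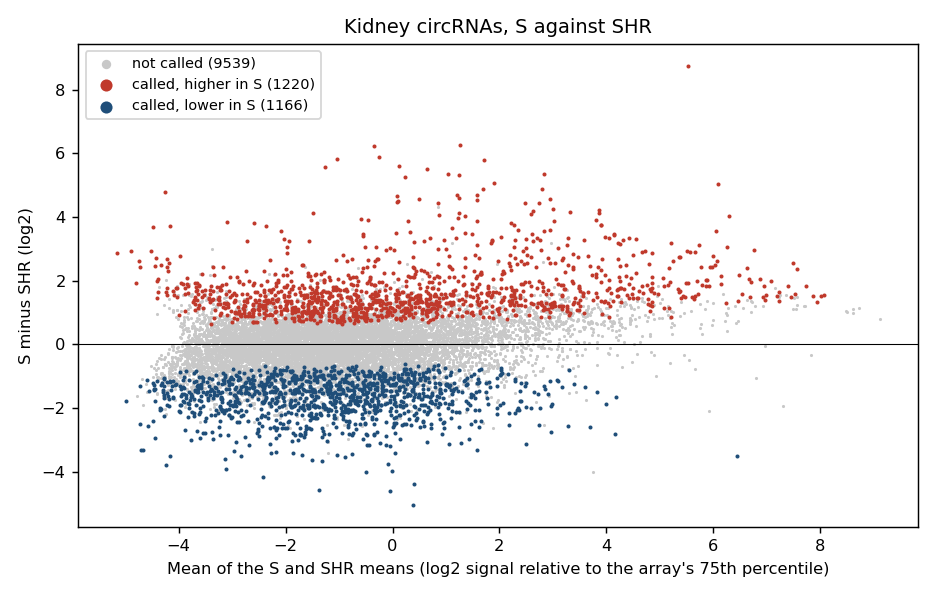
Each point is 1 of 11925 circRNAs, with the mean of its S and SHR means on the x axis (log2 signal relative to the array's 75th percentile) and S minus SHR (log2) on the y axis. Red points are the 1220 called higher in S, dark blue points the 1166 called lower and grey points the rest; differences over 16-fold are mostly in the upper part, where S is higher.

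The largest differences measured on all 6 arrays were circRNAs bright in every S kidney. ASCRPR006961 lay at 4.65, 4.28 and 4.25 in S rats 1 to 3 and at -3.29, 0.27 and -2.60 in SHR. All S rats were alike, and SHR rat 2 was the SHR rat nearest to them without overlapping them. Its difference was 6.27 log2 units (SE 0.78, limma adjusted p = 0.00104), or 77.1-fold. R lay at 1.83, 1.94 and 3.74 and WKY at -1.37, -2.28 and -2.42, so R held high levels and WKY low ones.

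The same layout was seen at the next circRNAs by size. ASCRPR006672 lay at 4.85, 4.64 and 4.31 in S and at -2.19, 1.104 and -2.44 in SHR, a 54.7-fold difference (adjusted p = 0.00171). ASCRPR001547 lay at 3.03, 2.76 and 2.97 in S and at -3.96, -0.83 and -3.20 in SHR, 48.1-fold apart (adjusted p = 0.00192). In both, the S rats lay within 1 log2 unit of each other and SHR rat 2 was the highest SHR rat. ASCRPR005701 lay at 3.88, 3.64 and 3.62 in S and at -2.61, 0.19 and -2.53 in SHR, 41.2-fold apart (adjusted p = 0.00119).

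ASCRPR007824 was the most evenly separated of these 5. It lay at 3.69, 3.24 and 3.23 in S and at -2.94, -1.05 and -2.35 in SHR, so that its gap of 4.28 log2 units was wider than the 1.90 spanned by the SHR rats. Its difference was 5.50 (SE 0.53, limma adjusted p = 0.00074), 45.1-fold. All 5 kept their call without any 1 rat, and without SHR rat 2 their differences ran from 6.03 (ASCRPR007824) to 7.34 (ASCRPR006961). Each of the 5 lost its call with slide as a block, where the differences ran from 4.82 (ASCRPR005701) to 5.67 (ASCRPR006961). All but that of ASCRPR007824 (5.52, limma adjusted p = 0.324) were then smaller than in the main fit. Each also lost its call with the mRNA-probe level as a covariate.

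A larger difference fell outside the naming rule because 1 SHR rat overlapped S, and it was chosen after its values were seen. ASCRPR013743 lay at 11.67, 7.04 and 10.97 in S and at -2.80, 8.56 and -2.31 in SHR. SHR rat 2 was above S rat 2, while SHR rats 1 and 3 were at the low level of WKY (-1.40, -3.26 and -2.03). The fitted difference was 8.74 log2 units (SE 2.54, limma adjusted p = 0.0385), and without SHR rat 2 it was 12.45 (adjusted p = 0.000862). The call was lost without S rat 1 (7.85, limma adjusted p = 0.135), S rat 3 (8.20, 0.117), SHR rat 1 (6.77, 0.159) or SHR rat 3 (7.01, 0.147). R lay at 4.37, 8.93 and 9.93, so this circRNA spanned a wide range within R as well.

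Among circRNAs well above background on all 6 arrays, the 5 with the largest differences lower in S lay between -3.997 and -2.82. ASCRPR013097 lay at -2.30, -1.16 and -2.58 in S and at 3.30, -0.026 and 2.67 in SHR (difference -3.997, SE 0.90, limma adjusted p = 0.0219), with no overlap. ASCRPR002757 lay at -2.71, -1.31 and -2.66 in S and at 1.42, -0.82 and 1.20 in SHR, a difference of -2.82 (adjusted p = 0.013). For both, SHR rat 2 was the lowest SHR rat and lay above S rat 2, by 1.14 and 0.49 log2 units.

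At the other 3 of these 5, the S rats were spread widely, with S rat 1 lowest and S rat 2 highest. ASCRPR010089 lay at -2.33, 0.94 and -0.18 in S and at 3.41, 1.42 and 3.02 in SHR (difference -3.14). ASCRPR000272 lay at -1.97, 1.58 and -0.45 in S and at 3.51, 1.76 and 3.22 in SHR (difference -3.11). ASCRPR009971 lay at -2.81, 0.24 and -1.47 in S and at 2.30, 0.53 and 2.11 in SHR (difference -2.99). S rat 2 and SHR rat 2 were at most 0.48 apart at these 3, less than the S rats were from each other. Their limma adjusted p-values were 0.024, 0.0264 and 0.0224, and none of the 5 circRNAs kept its call without S rat 1, S rat 3, SHR rat 1 or SHR rat 3, each left out in turn. Large differences lower in S that kept their call without each S or SHR rat were found among circRNAs with some S arrays not well above background. Examples, chosen after their values were seen, were ASCRPR009827 (-5.05), ASCRPR003268 (-3.93), ASCRPR013623 (-3.60) and ASCRPR012162 (-3.55). Of these, only ASCRPR009827 had a larger difference than ASCRPR013097.

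The brightest called circRNAs showed the dependence on rats 2 most plainly. ASCRPR004377 lay at 9.49, 6.90 and 8.58 in S and at 2.99, 6.85 and 3.01 in SHR. S rat 2 and SHR rat 2 were 0.049 log2 units apart, while S rats 1 and 3 lay far above SHR rats 1 and 3. The difference of the means was 4.04 (SE 0.95, limma adjusted p = 0.0247), and 5.33 without SHR rat 2. ASCRPR000997 lay at 8.24, 7.06 and 7.76 in S against 4.89, 6.88 and 5.13 in SHR (difference 2.05), and ASCRPR008524 at 8.15, 6.88 and 7.69 against 4.67, 6.76 and 4.74 (difference 2.18).

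At the bright circRNAs lower in S, the SHR rats spanned less than the S rats did. ASCRPR005195 lay at 2.36, 4.50 and 3.16 in S and at 5.10, 4.69 and 5.23 in SHR (difference -1.67, limma adjusted p = 0.0289). ASCRPR010939 lay at 2.04, 4.52 and 2.59 in S and at 5.01, 4.81 and 5.001 in SHR (difference -1.89, adjusted p = 0.0398). ASCRPR005579 lay at 1.82, 4.78 and 1.66 in S and at 5.92, 4.79 and 6.01 in SHR (difference -2.82, adjusted p = 0.045). At each of these, S rat 2 lay close below SHR rat 2, by 0.013 log2 units at ASCRPR005579. All 6 bright circRNAs lost their call without S rat 1, S rat 3, SHR rat 1 or SHR rat 3, and also with slide as a block, with the replicate block, with the mRNA-probe level as a covariate and with only S and SHR fitted. Quantile normalization also ended the call of ASCRPR000997, and normexp those of ASCRPR005195, ASCRPR005579 and ASCRPR010939. ASCRPR005579 and ASCRPR010939 lost theirs without some R and WKY rats as well.

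**Figure D2:**
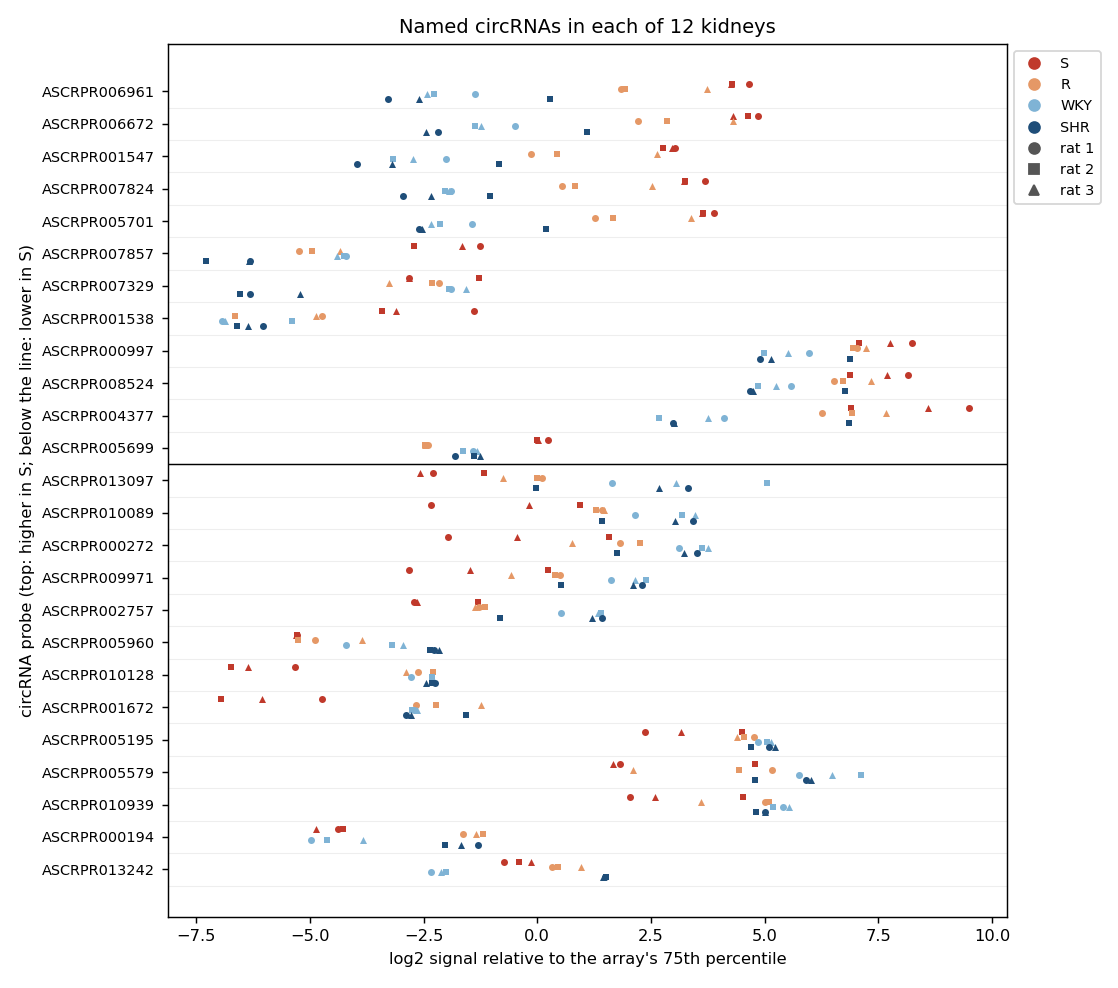
Log2 signal relative to the array's 75th percentile (x axis) of each named circRNA (y axis) in 12 kidneys, coloured by strain and shaped by rat number; circRNAs above the black line are higher in S. At ASCRPR004377 the squares of S rat 2 and SHR rat 2 nearly coincide at 6.90 and 6.85, while at ASCRPR013242 the SHR rats cluster between 1.45 and 1.52.

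A small set was detected in one strain and not in the other. Of 20 circRNAs well above background on every S array and on no SHR array, 17 were called, all higher in S, beside 10.2% called higher over all tested circRNAs. The reverse pattern held for 36 circRNAs, of which 21 were called, all lower in S, beside 9.78%. These calls are partly set by the filter, since such circRNAs were tested through the strain where they are bright. Their direction follows from how they were chosen. Their shares beside those of all tested circRNAs therefore carry no result. With every array of a strain below that level, a fold is a lower bound: the bright strain's mean is set against the dim strain's mean of the detection limit or the probe's own signal, whichever was higher on each array. Without S rat 1 the calls were 8 and 10. The bounds ran from 1.42-fold to 5.58-fold for S and from 1.00-fold to 3.52-fold for SHR. The bounds themselves were not tested. The adjusted p-values given with them belong to the fitted differences in log2 units, which rest on signals not well above background in the dim strain.

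ASCRPR007857 had the largest bound, at least 5.58-fold higher in S (fitted difference 4.78, limma adjusted p = 0.000587). It lay at -1.25, -2.71 and -1.65 in S, and at -6.32, -7.28 and -6.34 in SHR, where it was not well above background. Without SHR rat 2 the adjusted p was 0.000191. ASCRPR007329 was at least 4.14-fold higher in S (fitted difference 3.72, adjusted p = 0.00107), at -2.81, -1.27 and -2.81 in S. It was well above background on every R and WKY array too, so that SHR was the only strain with no such array. ASCRPR001538 was at least 3.28-fold higher in S (fitted difference 3.69, adjusted p = 0.00595), with 1 R array and no WKY array well above background.

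In the other direction, SHR rat 2 lay with the other SHR rats at the first 2 circRNAs and above them at the third. ASCRPR005960 lay at -2.27, -2.36 and -2.17 in SHR and was not well above background in S. It was at least 3.52-fold higher in SHR (fitted difference -3.02, limma adjusted p = 0.00107). ASCRPR010128 lay at -2.25, -2.30 and -2.44 in SHR, at least 3.36-fold above S (fitted difference -3.80, adjusted p = 0.000587). Every R and WKY array had it well above background. ASCRPR001672 lay at -2.88, -1.56 and -2.77 in SHR, at least 3.19-fold above S (fitted difference -3.51, adjusted p = 0.00347). R and WKY were again well above background on every array. For the last 2, S was the only strain with no array well above background. Of these 6 circRNAs detected in one strain, normexp background correction ended the calls of all but ASCRPR007329, and slide as a block ended all 6.

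R and WKY, which share no array with S and SHR, were then placed on the scale from SHR to S. With the SHR mean set to 0 and the S mean to 1, the median position over the 2386 called circRNAs was 1.33, 0.57 and 1.08 in S rats 1 to 3 and -0.20, 0.33 and -0.14 in SHR rats 1 to 3. The S and SHR positions follow from how the circRNAs were chosen. R lay between the models, at 0.38, 0.43 and 0.74, and WKY near SHR, at 0.04, -0.17 and -0.11. SHR rat 2 and R rats 1 and 2 thus stood at similar positions. The mean level of the mRNA probes was -1.76, -1.76 and -1.74 in R rats 1 to 3 and -0.90, 0.13 and -0.23 in WKY rats 1 to 3. In SHR rat 2 it was -1.79, beside -0.13 and -0.42 in SHR rats 1 and 3. The part of this level in the positions was not tested.

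WKY rats of both slides were mostly on the SHR side of the midpoint, for called circRNAs and for all tested ones. WKY rats 1 and 2, on slide 1 with S, were both on it for 92.9% of the called circRNAs (64.8% of all tested). WKY rat 3, the only WKY rat on slide 2 with SHR, was on it for 96.7% (81.8% of all tested). The first share needs 2 rats to agree and the second 1, so they are not alike. The part of slide in this placement was not tested. All R rats on the S side with all WKY rats on the SHR side was seen for 476 called circRNAs (19.9%), beside 13.9% of all tested. That share was 35.5% without SHR rat 2 and 32.9% without R rat 1, but 8.20% without S rat 2, 11.5% without SHR rat 1 and 10.7% without SHR rat 3. The matching shares over all tested circRNAs are not given here. Without R rat 1 fewer R rats must agree, which can raise the share. R rat 1 was the R rat least often on the S side (30.8% of the called circRNAs). R and WKY both lay with SHR for 342 (14.3%, the same share as over all tested) and both with S for 18 (0.754%, beside 1.97%). For 1547 (64.8%) the rats of R or WKY fell on both sides, beside 68.9% of all tested.

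**Figure D3:**
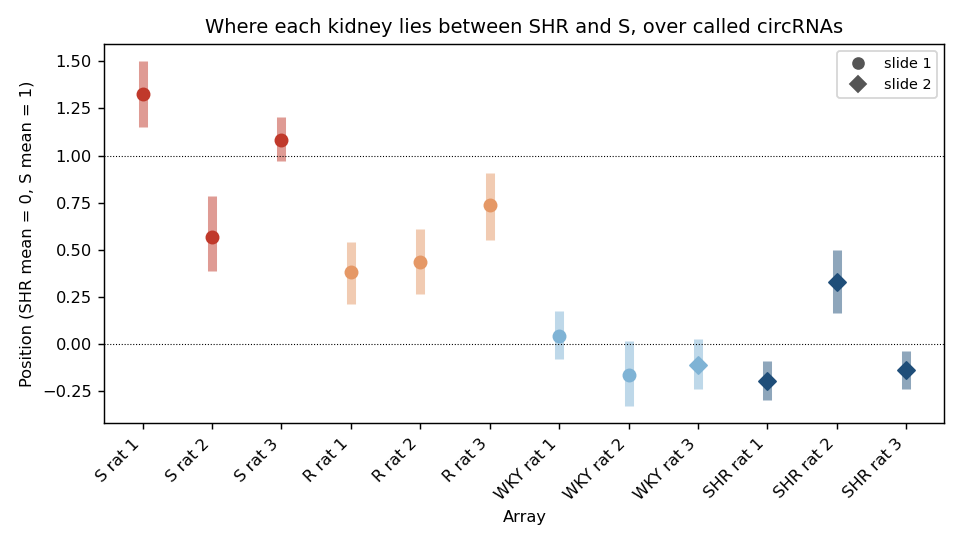
Median position of each kidney (y axis, SHR mean = 0 and S mean = 1) over the 2386 called circRNAs, with bars from the lower to the upper quartile; circles are slide 1 and diamonds slide 2. WKY arrays of both slides lie near 0, R arrays at 0.38 to 0.74, and SHR rat 2 at 0.33 stands above the other SHR rats.

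R and WKY also differed from each other, in fewer circRNAs. R minus WKY was called for 98 circRNAs (0.822%; limma, Benjamini-Hochberg adjusted p under 0.05), 71 higher (0.595%) and 27 lower (0.226%) in R. Among the circRNAs called higher in S than in SHR, the median of R minus WKY was 0.86 log2 units, beside 1.504 for S minus SHR. Among those called lower in S it was -0.91, beside -1.553. For ASCRPR006961 R minus WKY was 4.53 (adjusted p = 0.0289), beside 6.27 for S minus SHR. Over all tested circRNAs the median of R minus WKY was 0.009. These called circRNAs were chosen by S minus SHR, which by itself can make that difference the larger one.

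The difference between S minus SHR and R minus WKY was tested directly and passed for 7 circRNAs (0.0587%; limma, Benjamini-Hochberg adjusted p under 0.05), 4 positive (0.0335%) and 3 negative (0.0252%). ASCRPR013242 lay at -0.72, -0.41 and -0.13 in S, at 1.49, 1.52 and 1.45 in SHR, at 0.32, 0.46 and 0.96 in R and at -2.34, -2.002 and -2.13 in WKY. It was lower in S than in SHR by 1.91 log2 units but higher in R than in WKY by 2.74, and no strain overlapped another. The difference of the differences was -4.64 (SE 0.34, adjusted p = 0.000132). The count of 7 was 11 without S rat 1, 299 without S rat 2, 3 without R rat 2 or WKY rat 3, and 4 without S rat 3, R rat 1, WKY rat 1 or SHR rat 1.

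ASCRPR000194 also ran in opposite directions. It lay at -4.39, -4.27 and -4.86 in S and at -1.29, -2.03 and -1.67 in SHR, but at -1.63, -1.19 and -1.35 in R and at -4.98, -4.62 and -3.83 in WKY. SHR and R were high and S and WKY low, and the difference of the differences was -5.92 (SE 0.45, limma adjusted p = 0.000132). The low strains each had it well above background on 1 of 3 arrays, so the size depends on dim values. With normexp the difference of the differences was -1.61 (limma adjusted p = 0.679) and S minus SHR -0.65 (adjusted p = 0.13), and both calls were lost.

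At ASCRPR005699 S was alone at a high level. It lay at 0.23, 0.0017 and 0.023 in S, at -1.81, -1.40 and -1.25 in SHR, at -2.39, -2.47 and -2.46 in R and at -1.40, -1.63 and -1.32 in WKY. S minus SHR was 1.57 (SE 0.22, limma adjusted p = 0.00171) and R minus WKY -0.99 (adjusted p = 0.0588). Unlike ASCRPR013242, it lost its S against SHR call with only the S and SHR arrays fitted (adjusted p = 0.0634). ASCRPR012875, which the naming rule did not reach and which was named after its values were seen, had the same shape: -0.95, -1.24 and -0.81 in S against -2.94, -2.56 and -2.74 in SHR, with R and WKY between -2.77 and -2.01. The other 3 of the 7 were ASCRPR007857, ASCRPR007329 and ASCRPR010128, described above, each with no array well above background in S or in SHR.

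The balance of higher and lower calls changed with brightness and with the scaling. CircRNAs were divided by mean signal into 5 groups of 2385. In the brightest group 471 were higher in S and 224 lower, with a median difference of 0.42 log2 units. In the other 4 groups the medians ran from -0.16 to -0.04. With quantile normalization the median of the brightest group was -0.0010 and its calls were 254 higher and 328 lower, so the excess of bright circRNAs higher in S turned round. The brightest group had 541 higher and 181 lower with the array median, 957 and 327 without SHR rat 2, and 90 and 9 without S rat 1. Over all tested circRNAs the median of S minus SHR was -0.02 with the 75th percentile, 0.01 with quantile normalization, 0.07 with normexp and 0.12 with the array median. Called circRNAs split into 1456 higher and 932 lower with the array median and into 445 and 218 with normexp.

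**Figure D4:**
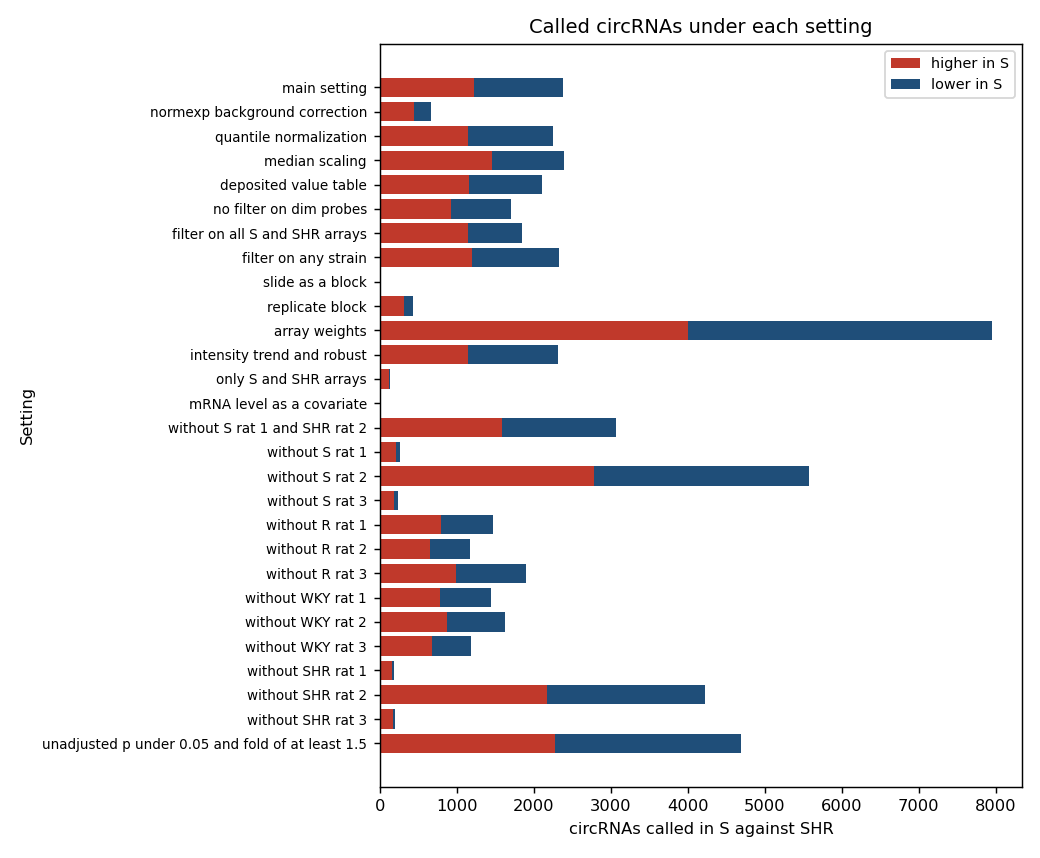
Number of circRNAs called in S against SHR (x axis, starting at 0) under each setting (y axis), with those higher in S in red and lower in S in dark blue. The main setting calls 2386; leaving out S rat 2 or SHR rat 2 raises the count to 5573 or 4225, and slide as a block leaves 0.

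Linear RNA in the same libraries was read from probes to mRNAs. Of the 35 mRNA probes tested, 15 passed limma's test (42.9%, Benjamini-Hochberg adjusted p under 0.05), 14 lower in S (40.0%) and 1 higher (2.86%), with a median difference of -1.53 log2 units. Leaving out SHR rat 2 gave 27 calls, R rat 1 gave 9, S rat 3 gave 2, and S rat 1, SHR rat 1 or SHR rat 3 gave 1 each. The mean level of these probes was -1.998 ± 0.16 (SD, n = 3) in S and -0.78 ± 0.89 in SHR. For this difference a two-sided exact permutation test gave p = 0.1, the smallest that 3 against 3 allows, or 0.3 after adjustment over 3 array measures. The part of this level in the circRNA differences was not tested beyond the covariate fit, in which 5 circRNAs were called. S and SHR differ in this level, so that fit cannot separate it from strain, and calls lost under it cannot be assigned to either.

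By gene group, 1 of the 2 ribosomal protein genes matched to a probe was lower in S, a share near the 40.0% of all mRNA probes. Rplp1, a stalk protein of the large ribosomal subunit, lay at -1.77, 0.21 and -0.76 in S and at 5.77, 0.20 and 5.01 in SHR (difference -4.44, limma adjusted p = 0.027). SHR rat 2 was at the level of S rat 2, and SHR rats 1 and 3 were far above every S rat. Rpl13a, also of the large subunit, had a difference of -1.62 (adjusted p = 0.0853).

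Both glycolysis genes that were matched to a probe had a probe that was called lower in S. That was 2 of 3 probes, beside 40.0% of all mRNA probes, and so few probes carry no result about glycolysis as a group. Pgk1, which makes ATP in glycolysis, lay at -1.54, -1.25 and -1.23 in S and at 2.95, -1.13 and 2.43 in SHR (difference -2.75, limma adjusted p = 0.0423). Ldha, which interconverts pyruvate and lactate, had differences of -3.20 (adjusted p = 0.0444) and -0.996 (adjusted p = 0.141) on its 2 probes. On the called probe, SHR rat 2 (-0.58) lay within the S range (-1.02 to -0.33). Of 6 common reference genes 2 were called lower in S, a share near the 40.0% of all mRNA probes. B2m, or beta-2-microglobulin of the MHC class I complex, had a difference of -1.83 (adjusted p = 0.0444). Its SHR rat 2 (2.37) lay within the S range (1.82 to 2.69). Hprt1, which recycles purine bases, had a difference of -2.54 (adjusted p = 0.027), and the other 4 (Actb, Gusb, Hsp90ab1 and Sdha) did not pass.

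The gene that was higher in S was Ptk2b, a calcium-activated tyrosine kinase. It lay at 1.80, 0.42 and 0.97 in S and at -3.47, -1.24 and -3.48 in SHR, with no overlap (difference 3.79, SE 0.66, limma adjusted p = 0.00315). Of 12 kidney marker genes listed, only Cyp2e1, a cytochrome P450 of the proximal tubule and liver, was matched to a probe. Cyp2e1 was well above background on every S and SHR array. It lay at -1.51, -1.33 and -1.31 in S and at 1.80, -1.90 and 1.29 in SHR (difference -1.78, adjusted p = 0.0841). The leukocyte gene Nlrp3, an inflammasome sensor, had a difference of 0.24 (adjusted p = 0.625). None of the listed endothelial or smooth muscle genes was among the genes matched to an mRNA probe, so their part in the results was not tested.

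**Figure D5:**
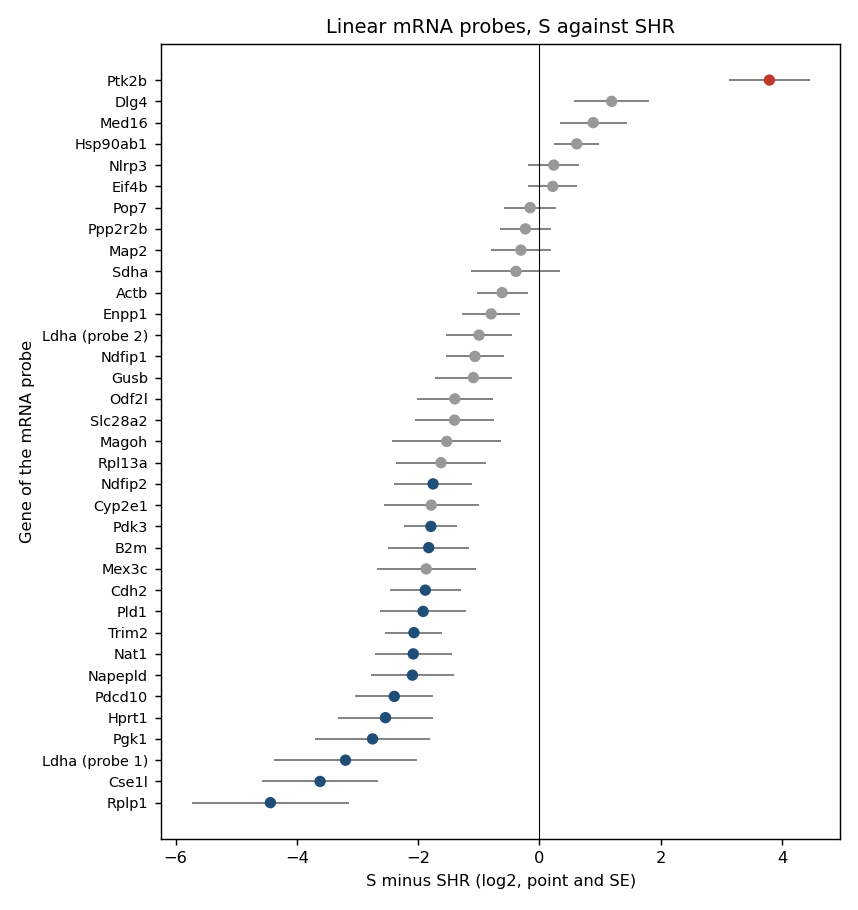
S minus SHR (x axis, log2, point and SE) for 35 mRNA probes, labelled by gene on the y axis; red and dark blue points passed limma's test and grey points did not. The point of Ptk2b lies at 3.79 and that of Rplp1 at -4.44, and most of the probes lie below 0.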

How the data were processed

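Kidney RNA of 12 rats was measured on 1-colour arrays, 1 per rat. Per the file headers, Agilent Feature Extraction 11.0.1.1 gave the deposited signal intensities, which are background-subtracted and carry no scaling from array to array. Limma is also named, without a role, per the submitters' processing notes. The deposited table holds log2 values of 12846 circRNA probes with column medians from 6.70 to 6.75; each column matched its own array best (rho of at least 0.993), and its scale is log2 with centring and filtering unknown. It was an alternative only, and has no ratio direction.

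Intensities were taken to log2 minus each array's 75th percentile over circRNA probes. The 40 spots with an outlier flag were missing and 0 were saturated. Tested probes were well above background on all 3 S or all 3 SHR arrays (11925); 2220 were dimmer. A mean per strain was fitted to 12 arrays with limma 3.58.1 in R 4.3.3 (8 residual degrees of freedom), with contrasts S minus SHR, R minus WKY and their difference, adjusted by Benjamini-Hochberg at 0.05. The fit was tested on simulated data. The number of arrays limits the precision.

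Named circRNAs were called and non-overlapping: per direction, the 5 largest differences measured on all 6 arrays, the 3 largest bounds among those detected in one strain, the 3 brightest on all 6 arrays, and the 3 largest differences from R minus WKY. ASCRPR013743, ASCRPR012875, ASCRPR009827, ASCRPR003268, ASCRPR013623 and ASCRPR012162 were added afterwards. Members, lists and tests were chosen with earlier results of these data known. Of 62 mRNA probes with an accession 39 matched 1 gene in the RefSeq table of GRCr8, and 35 were tested. Alternatives were background correction, scaling, filters, slide and replicate blocks, array weights, variance model, samples fitted, an mRNA covariate and each rat left out.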

Additional observations from a re-analysis of the deposited data

Results flagged for a closer look

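6 circRNAs were singled out because S minus SHR differed from R minus WKY by a direct test (limma, Benjamini-Hochberg adjusted p under 0.05, 3 rats per strain). ASCRPR000194 had a difference of the differences of -5.92 (adjusted p = 0.000132) and ASCRPR013242 one of -4.64 (adjusted p = 0.000132), both with S minus SHR and R minus WKY of opposite sign. ASCRPR007857 had 5.33 (adjusted p = 0.00259) and ASCRPR005699 had 2.56 (adjusted p = 0.00792), with S alone at a high level in both. ASCRPR007329 had 4.50 (adjusted p = 0.0388), where SHR was dim and the other strains were not. ASCRPR010128 had -3.67 (adjusted p = 0.0131), where S was dim and the other strains were not. The sizes of ASCRPR007857, ASCRPR007329 and ASCRPR010128 rest on values that were not well above background in one of the models, and that of ASCRPR000194 on strains with 1 of 3 arrays well above it. With normexp all 4 lost their call, ASCRPR000194 at -1.61 (limma adjusted p = 0.679). ASCRPR007329 lost its call in 15 of 24 alternatives, among them the deposited table, both blocks and the mRNA-probe covariate, and ASCRPR010128 in 10 of 24, both blocks included. ASCRPR005699 lost its call in 4 of 25, with both blocks and without R rat 2 or WKY rat 3, ASCRPR007857 in 3 of 24 and ASCRPR000194 in 1 of 24. ASCRPR013242 lost its call in 0 of 25, with values from -4.79 to -3.23 and a largest limma adjusted p of 0.00406.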

How the results depend on the processing

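The 2386 circRNAs called in S against SHR were 663 with normexp background correction, 433 with a replicate block, 7951 with array weights, 140 with only the S and SHR arrays, 5 with the mRNA-probe level as a covariate and 4699 by the rule of a 1.5-fold difference and an unadjusted p under 0.05. The fit with slide as a block had 0 that passed limma's adjusted test, against 840 at an unadjusted p under 0.05; the median SE of the 2386 was then 0.75 in place of 0.40, and their median size 1.46 in place of 1.53. Leaving out 1 rat gave 192 to 5573. Quantile normalization (2256), the array median (2388), the deposited table (2104), the other filters (1701 to 2335), the trend and robust fit (2318) and leaving out S rat 1 and SHR rat 2 together (3064, chosen after seeing the data) moved the count by less than 1.5 times. The 7 circRNAs whose S minus SHR differed from R minus WKY were 2 with normexp, 3 with the deposited table, 3 with the filter on all S and SHR arrays, 11 with the filter on any strain, 2 with slide as a block, 3 with the replicate block and 3814 with array weights, and 3 to 299 with 1 rat left out. The share with R on the S side and WKY on the SHR side was 8.20% to 35.5% with 1 rat left out. With all rats it was 19.9% of the called circRNAs, beside 13.9% of all tested. Shares over all tested circRNAs with 1 rat left out are not given here, so that range has no background beside it. The 15 mRNA calls were 0 with slide as a block (1 at an unadjusted p under 0.05), 3 with only the S and SHR arrays and 1 to 27 with 1 rat left out. The causes of these shifts were not tested. No named circRNA changed sign under its alternatives. For the fits that left out rats this was fixed by the choice of circRNAs whose S and SHR values do not overlap.

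The deviations of same-numbered S and SHR rats from their strain means correlated at -0.29, -0.23 and -0.10. For S and R rats 1 to 3 these correlations were -0.38, 0.24 and 0.53. Rats 2 of S and SHR mostly lay toward the other strain, which by itself lowers their correlation. Whether replicate numbers pair the rats therefore cannot be decided from these values. Slide and strain cannot be told apart between S and SHR, and only WKY lies on both slides. Signal near background limits the circRNAs detected in one strain, whose folds are bounds.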
